A study of Mus musculus with 12 samples.

Results

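Passage through G1 is set by the D cyclins, the kinases they bind, and the inhibitors of these kinases. A set of 10 genes of this machinery was followed in satellite cells, the resident stem cells of skeletal muscle. The genes were chosen by symbol and are the D cyclins *Ccnd1*, *Ccnd2* and *Ccnd3*, the kinases *Cdk4* and *Cdk6*, the inhibitors *Cdkn1a*, *Cdkn1b*, *Cdkn1c* and *Cdkn2c*, and the retinoblastoma gene *Rb1*. All 10 were among the 25093 genes of the deposited count table.

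As background, a D cyclin binds CDK4 or CDK6, and the complex phosphorylates RB1, which otherwise holds E2F transcription factors in check. Inhibitors of the Cip/Kip family (p21, p27 and p57, encoded by *Cdkn1a*, *Cdkn1b* and *Cdkn1c*) bind cyclin-CDK complexes, whereas those of the INK4 family, to which p18 (*Cdkn2c*) belongs, bind CDK4 and CDK6 themselves. Resting satellite cells are in a reversible G0 state, and entry into the cell cycle after muscle damage passes through this checkpoint.

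The series holds 12 mRNA libraries from mice, in 4 groups of 3, made by *Gli3* genotype and by state of the cells. All mice carried *Pax7*-CreERT2 and the R26R-YFP reporter and received tamoxifen, so that Cre acted in cells expressing *Pax7*. They were *Gli3*+/+ or *Gli3* fl/fl, the latter called *Gli3*∆/∆ after recombination, and were 3 to 4 months old. Quiescent satellite cells (QSCs) were sorted as α7-integrin+ CD34+ cells, negative for blood and endothelial antigens, from the uninjured hindlimb muscles of 2 to 3 mice pooled per library. Activated satellite cells (ASCs) were sorted from single mice 3 days after cardiotoxin injury, and their columns of counts could not be matched to labelled samples. The comparison below is therefore between the 3 *Gli3*+/+ and the 3 *Gli3*∆/∆ libraries of QSCs, numbered as in the labels, and it addresses whether loss of *Gli3* goes with a different level of these regulators in resting muscle.

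The QSC libraries held 39556784, 65340069 and 47007056 estimated counts in *Gli3*+/+ and 51913963, 65750131 and 50417695 in *Gli3*∆/∆. At this depth the lowest count of any of the 10 genes in any library was 139, for *Ccnd2*. Levels are given in CPM, each gene's counts relative to the TMM-adjusted total of its library, and in CPM per kilobase of the longest coding transcript where genes are compared with each other. *Gli3* itself was at 11.2, 9.71 and 9.75 CPM in *Gli3*+/+ and at 9.54, 10.5 and 6.25 CPM in *Gli3*∆/∆ libraries. These counts cover the gene as a whole, whereas the floxed allele loses only part of it, so they do not check the deletion. The satellite cell marker *Pax7* was abundant in all 6 libraries, between 798 and 1157 CPM, and none of the 8 satellite cell markers was at 0 in any library. In libraries of whole cell populations, fewer cells expressing a gene and less RNA per cell cannot be told apart.

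No member of the set passed the test between genotypes. By edgeR's quasi-likelihood test (Benjamini-Hochberg adjusted p under 0.05 and at least 1.2-fold), 0 of the 10 were called, where 88 of all 25093 genes were, or 0.351%. DESeq2 called 384 genes (1.53%) and limma-voom 73, and each of them called 0 of the 10. At an unadjusted p under 0.05, edgeR, DESeq2 and limma-voom each picked out 1 of the 10, *Cdkn1c*, and for edgeR the share over all genes was 7.11%. *Cdkn1c* was also the only one of the 10 whose libraries did not overlap between genotypes, which was the case for 13.0% of all genes. The log2 fold change was positive for 7 and negative for 3 members, with a median of 0.22, and the median of all genes was -0.03. Among genes at 1 CPM or more, 47.2% had a positive log2 fold change.

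**Figure D1:**
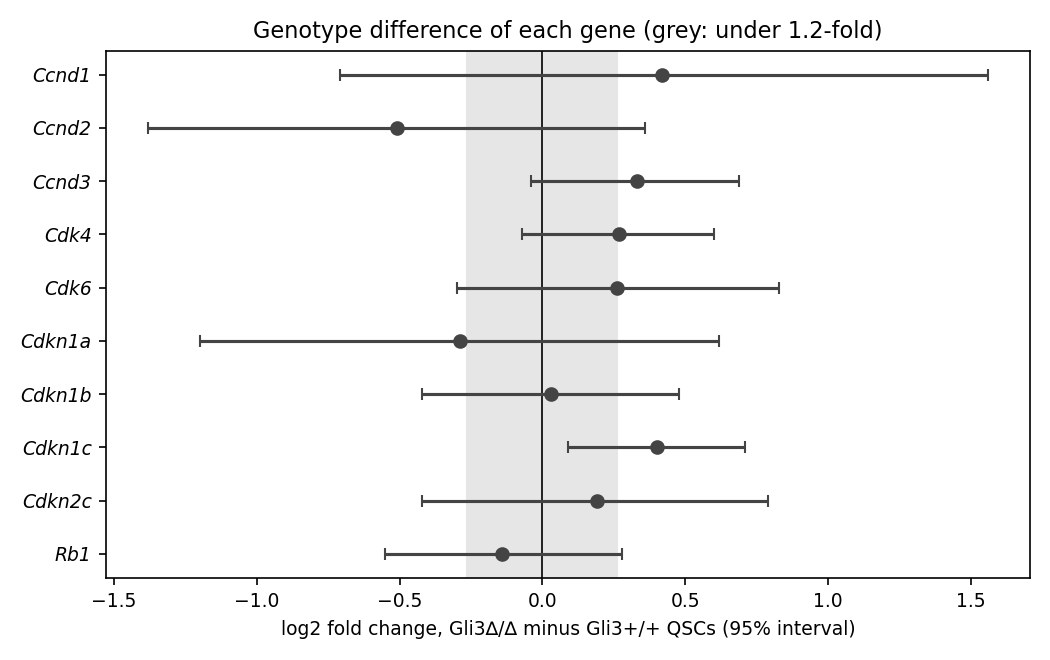
Log2 fold change of each gene between *Gli3*∆/∆ and *Gli3*+/+ QSCs (horizontal axis, log2 scale), with bars for the 95% interval of the edgeR fit over 3 libraries a genotype and grey for changes under 1.2-fold. The interval lies above 0 for *Cdkn1c*, from 0.09 to 0.71, and spans 0 for the other 9 genes.

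Among the D cyclins, *Ccnd3* (ENSMUSG00000034165.16, chr17:47505051-47599691, plus strand) was the prevailing transcript. It was counted at 224, 197 and 167 CPM in *Gli3*+/+ and at 213, 277 and 248 CPM in *Gli3*∆/∆ libraries. The highest of the 6 values were in *Gli3*∆/∆ libraries 2 and 3, but library 1 of that genotype lay below the first *Gli3*+/+ library, so the groups overlapped. The means were 196 ± 28.7 and 246 ± 31.8 CPM (SD, n = 3), a 1.26-fold ratio with a 95% interval from 0.975 to 1.62 (adjusted p = 0.755, edgeR).

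*Ccnd1* (ENSMUSG00000070348.5, chr7:144929931-144939925, minus strand), the D cyclin best known as a target of growth factor signals, varied most between libraries. Its level was 91.4, 27.7 and 124 CPM in *Gli3*+/+ and 74.5, 172 and 80.2 CPM in *Gli3*∆/∆ libraries. The lowest value, in *Gli3*+/+ library 2, stood well below the other 5, and the highest, in *Gli3*∆/∆ library 2, was 6.21 times the lowest. The log2 fold change was 0.42 with a standard error of 0.5 (adjusted p = 0.925, edgeR), and the interval of the fold ran from 0.61 to 2.95. The log2 fold change was -0.07 without *Gli3*∆/∆ library 2 and 0.02 without *Gli3*+/+ library 2, so the difference rested on these libraries.

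*Ccnd2* (ENSMUSG00000000184.12, chr6:127125162-127152193, minus strand) was the scarcest member, at 6.73, 2.09 and 4.55 CPM in *Gli3*+/+ and 3.34, 3.25 and 2.73 CPM in *Gli3*∆/∆ libraries. The *Gli3*∆/∆ values lay close together and within the range of the *Gli3*+/+ values. The means were 4.46 ± 2.32 and 3.11 ± 0.327 CPM (SD, n = 3), and the log2 fold change was -0.51 with a standard error of 0.38 (adjusted p = 0.89, edgeR). It was -0.09 without *Gli3*+/+ library 1 and -0.85 without *Gli3*+/+ library 2.

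Per kilobase, *Ccnd3* made up 80.6%, 92.3% and 69.9% of the D cyclin signal in *Gli3*+/+ and 83.2%, 73.8% and 84.3% in *Gli3*∆/∆ libraries. *Ccnd1* supplied nearly all of the rest, with a mean share of 18.8% over the 6 libraries, and *Ccnd2* 0.467%. Neither the share of *Ccnd3* nor that of *Ccnd1* differed between genotypes beyond the spread (exact permutation test, two-sided, p = 1 for each), and that of *Ccnd2* gave p = 0.2, where 3 against 3 libraries cannot go below 0.1. The lead of *Ccnd3* depends on the transcript length used: it averaged 105 CPM per kilobase against 25.4 for *Ccnd1*, but 25.2 against 20.2 when all annotated exons of each gene were merged.

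**Figure D2:**
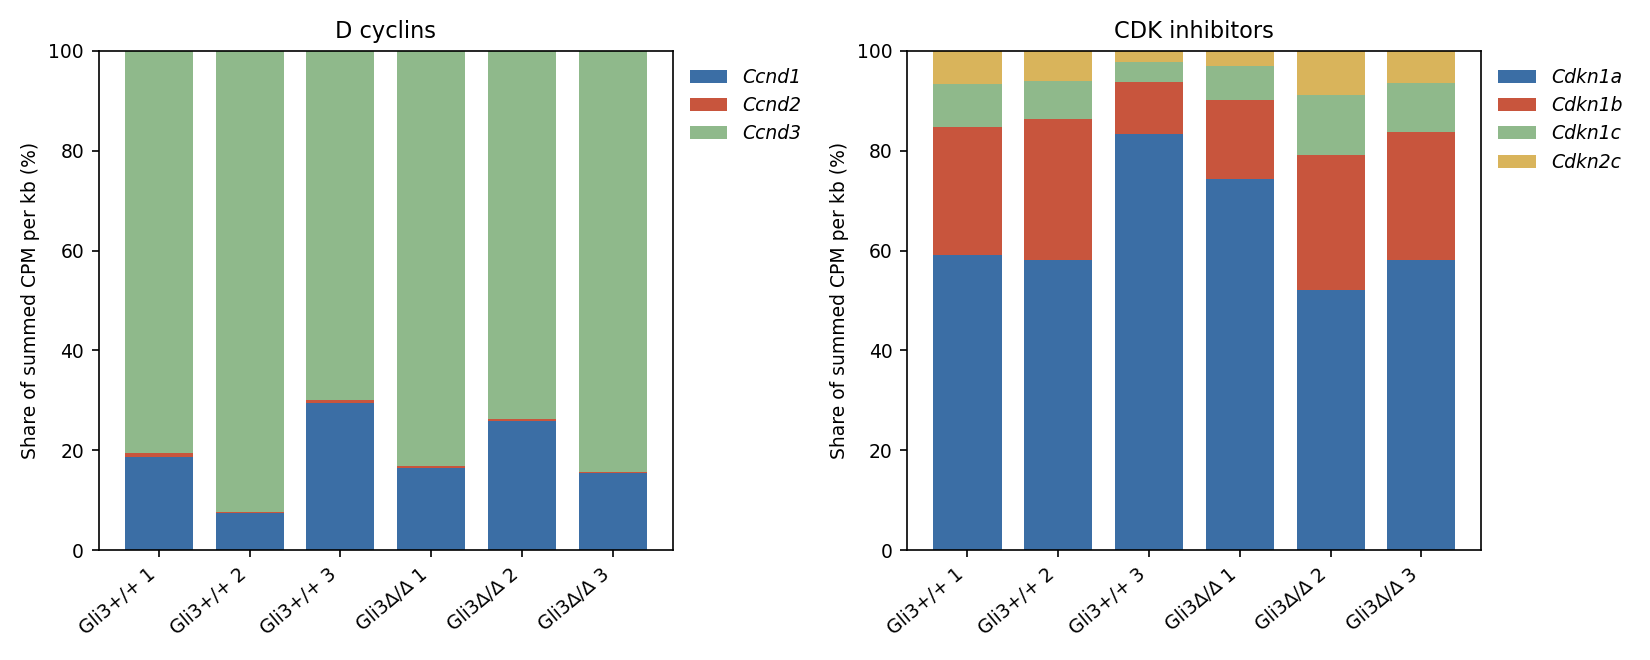
Share of each gene (vertical axis, percent) in the summed CPM per kilobase of the D cyclins (left) and of the 4 CDK inhibitors (right), with a bar for each QSC library. *Ccnd3* holds most of the D cyclin bar in all 6 libraries, with its lowest share, 69.9%, in *Gli3*+/+ library 3, where the *Cdkn1a* share of the inhibitor bar is highest, at 83.3%.

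The D cyclins have their partners in *Cdk4* (ENSMUSG00000006728.12, chr10:127063534-127067920, plus strand) and *Cdk6* (ENSMUSG00000040274.11, chr5:3341485-3531008, plus strand), which encode closely related kinases. Their promoter sequences are shown because the 2 genes were at very different levels in QSCs and because both windows hold the E-box CACGTG, the letters bound by MYC and MAX among other factors. Each window runs from 250 bases before to 50 bases after an annotated start (RefSeq, GRCm38.p6), and is written 5′ to 3′ on the strand of the gene with CACGTG in capitals. The *Cdk4* window is chr10:127063285-127063584 and the *Cdk6* window chr5:3343643-3343942.
Cdk4: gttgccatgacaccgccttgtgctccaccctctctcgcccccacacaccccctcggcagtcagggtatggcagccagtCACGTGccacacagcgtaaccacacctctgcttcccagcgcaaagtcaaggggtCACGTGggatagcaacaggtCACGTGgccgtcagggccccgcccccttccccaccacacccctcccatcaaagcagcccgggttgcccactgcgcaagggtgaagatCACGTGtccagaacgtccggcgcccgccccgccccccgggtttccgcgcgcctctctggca
Cdk6: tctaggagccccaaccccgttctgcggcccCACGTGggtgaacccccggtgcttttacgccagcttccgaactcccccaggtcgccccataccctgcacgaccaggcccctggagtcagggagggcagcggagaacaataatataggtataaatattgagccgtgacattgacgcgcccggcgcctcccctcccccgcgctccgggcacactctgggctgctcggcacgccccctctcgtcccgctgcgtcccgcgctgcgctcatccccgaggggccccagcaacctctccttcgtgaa

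The *Cdk4* window held CACGTG at 4 places and that of *Cdk6* at 1. CACGTG reads the same on both strands and was found in 7.15% of all 32851 promoter windows. It was at 4 or more places, a cut equal to the number in the *Cdk4* window, in 0.0244% of them. Windows were matched for 6 of the 10 genes, 9 windows in all, and apart from *Cdk4* and *Cdk6* the E-box was found in 1 of the 2 windows of *Cdkn2c*. The letters GACCACCCA of the GLI motif, searched on both strands and present in 0.253% of all windows, were in none of the 9, and neither were the E2F letters TTTCCCGC (1.07% of all windows) or TTTGGCGC (0.514%). A match of letters is a description of the window and not a measurement of binding. Whether the E-boxes bear on the different levels of *Cdk4* and *Cdk6* was not tested.

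*Cdk4* was at 98.7, 78 and 100 CPM in *Gli3*+/+ and at 98.8, 114 and 120 CPM in *Gli3*∆/∆ libraries. *Gli3*∆/∆ libraries 2 and 3 were above all others, while library 1 lay within the *Gli3*+/+ range. The ratio of the genotypes was 1.2-fold with an interval from 0.95 to 1.52 (adjusted p = 0.816, edgeR).

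*Cdk6* was at 13, 6.89 and 9.47 CPM in *Gli3*+/+ and at 13.9, 11.3 and 10 CPM in *Gli3*∆/∆ libraries, and the groups overlapped. Its ratio was also 1.2-fold, with a wider interval from 0.811 to 1.77 (adjusted p = 0.912, edgeR). Per kilobase *Cdk4* exceeded *Cdk6* in every library, between 40 times in *Gli3*∆/∆ library 1 and 67.3 times in *Gli3*∆/∆ library 3, and the mean ratio was 55.2 ± 11.1 in *Gli3*+/+ and 54.7 ± 13.8 in *Gli3*∆/∆ QSCs (SD, n = 3, exact permutation test, two-sided, p = 1). The size of this ratio depends on the lengths used, 2053 bases for *Cdk4* and 11525 for *Cdk6*. With all annotated exons merged, the means were 31.3 and 0.768 CPM per kilobase. The summed CPM of the kinases was 112, 84.9 and 110 in *Gli3*+/+ and 113, 125 and 130 in *Gli3*∆/∆ libraries. These sums did not overlap, although the nearest libraries, at 112 and 113 CPM, were almost level, and the exact permutation test gave p = 0.1, the smallest value that 3 against 3 libraries allow. Per kilobase the sums were 49.2, 38.6 and 49.7 in *Gli3*+/+ and 49.3, 56.6 and 59.3 in *Gli3*∆/∆ libraries, and these overlapped (exact permutation test, two-sided, p = 0.2).

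**Figure D3:**
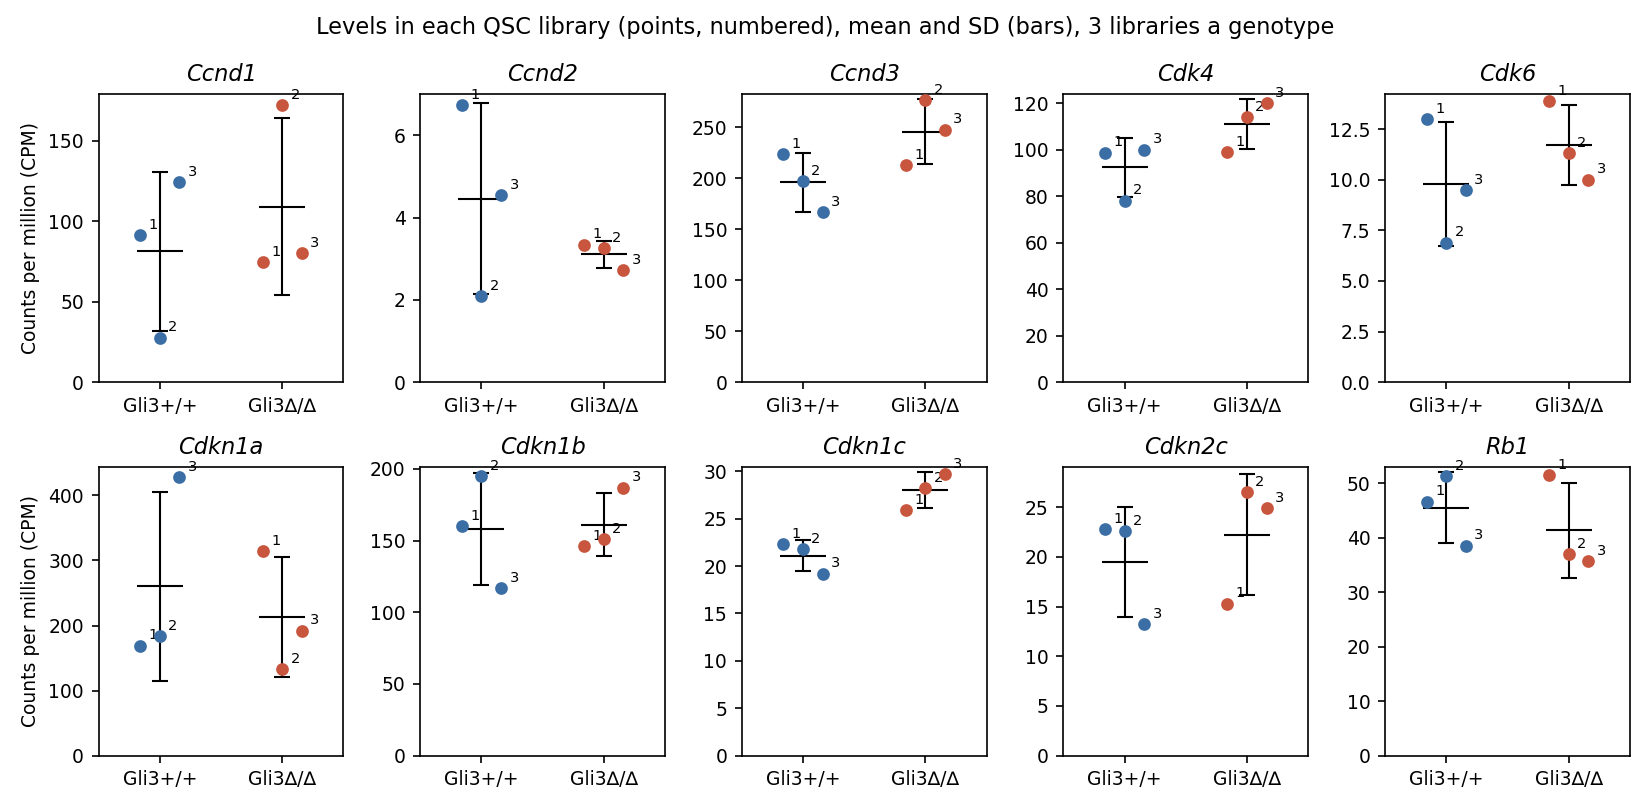
Level of each of the 10 genes in each QSC library (vertical axes, CPM, each from 0), with numbered points for the 3 libraries of a genotype and black bars for their mean and SD. *Cdkn1c* is the gene whose points do not overlap between genotypes, from 19.2 to 22.3 CPM in *Gli3*+/+ and from 25.9 to 29.7 CPM in *Gli3*∆/∆.

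Among the Cip/Kip inhibitors, *Cdkn1c* (ENSMUSG00000037664.13, chr7:143458339-143461050, minus strand), an imprinted gene encoding p57, was at 22.3, 21.8 and 19.2 CPM in *Gli3*+/+ and at 25.9, 28.2 and 29.7 CPM in *Gli3*∆/∆ libraries. Every *Gli3*∆/∆ library was above every *Gli3*+/+ library, and the spread within each genotype was small. The standard deviation of log2(CPM + 1) was 0.1 against 0.21 for the median gene at 1 CPM or more. The ratio was 1.32-fold with an interval from 1.07 to 1.64 (unadjusted p = 0.0167, adjusted p = 0.512, edgeR). The adjusted p was 0.278 by DESeq2 and 0.391 by limma-voom. The difference thus failed the correction for the number of genes tested, and 1 gene of 10 without overlap is no more than the 13.0% of all genes.

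*Cdkn1a* (ENSMUSG00000023067.14, chr17:29090976-29100727, plus strand) encodes p21, the inhibitor induced by p53 as well as by other stress signals. The window at its more upstream annotated start (chr17:29090729-29091028, RefSeq, GRCm38.p6, plus strand) is shown because this gene was the most abundant inhibitor and among the most variable of the set. The capitals mark a match to the p53 consensus, 2 adjacent half-sites of 10 bases, with at most 1 base off. This consensus reads the same on both strands and was matched in 0.0883% of all windows and in 1 of the 9 windows of the set; the search for it was added after the values had been seen.
Cdkn1a: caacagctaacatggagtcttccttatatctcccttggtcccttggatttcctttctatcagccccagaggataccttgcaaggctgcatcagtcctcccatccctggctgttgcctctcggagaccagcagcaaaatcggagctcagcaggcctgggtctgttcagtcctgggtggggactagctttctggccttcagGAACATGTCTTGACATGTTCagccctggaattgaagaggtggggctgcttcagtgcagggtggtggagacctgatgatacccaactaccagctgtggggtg

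*Cdkn1a* was at 169, 184 and 428 CPM in *Gli3*+/+ and at 314, 133 and 192 CPM in *Gli3*∆/∆ libraries. A single library of each genotype, *Gli3*+/+ library 3 and *Gli3*∆/∆ library 1, was high, and the other 4 lay between 133 and 192 CPM. The log2 fold change was -0.29 with a standard error of 0.4 (adjusted p = 0.94, edgeR), and it was 0.27 without *Gli3*+/+ library 3. *Myc*, from the list of other G1 genes, was highest in the same libraries, at 120, 112 and 236 CPM in *Gli3*+/+ and 228, 104 and 115 CPM in *Gli3*∆/∆.

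*Cdkn1b* (ENSMUSG00000003031.14, chr6:134920401-134925513, plus strand), which encodes p27, was at 160, 195 and 117 CPM in *Gli3*+/+ and at 146, 151 and 187 CPM in *Gli3*∆/∆ libraries. All 3 *Gli3*∆/∆ values lay within the *Gli3*+/+ range. The ratio was 1.02-fold, and its interval from 0.749 to 1.4 leaves room for changes in either direction (adjusted p = 0.999, edgeR).

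*Cdkn2c* (ENSMUSG00000028551.14, chr4:109660876-109667189, minus strand), which encodes the INK4 inhibitor p18, was at 22.8, 22.6 and 13.2 CPM in *Gli3*+/+ and at 15.3, 26.5 and 24.9 CPM in *Gli3*∆/∆ libraries. Its lowest values were in *Gli3*+/+ library 3 and *Gli3*∆/∆ library 1, the libraries in which *Cdkn1a* was highest. The ratio was 1.14-fold with an interval from 0.745 to 1.73 (adjusted p = 0.943, edgeR).

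Per kilobase, *Cdkn1a* made up 59.1%, 58.2% and 83.3% of the summed inhibitors in *Gli3*+/+ and 74.4%, 52% and 58.1% in *Gli3*∆/∆ libraries. The mean shares over the 6 libraries were 64.2% for *Cdkn1a*, 22.1% for *Cdkn1b*, 8.14% for *Cdkn1c* and 5.5% for *Cdkn2c*. None of these shares differed between genotypes beyond the spread (exact permutation tests, two-sided, p between 0.3 and 0.8). For *Cdkn1c* the mean share was 6.73% ± 2.33 in *Gli3*+/+ and 9.55% ± 2.71 in *Gli3*∆/∆ QSCs (SD, n = 3), and unlike its level the share overlapped between genotypes.

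*Rb1* (ENSMUSG00000022105.6, chr14:73183673-73325822, minus strand), the substrate of the cyclin D kinases, was at 46.6, 51.3 and 38.5 CPM in *Gli3*+/+ and at 51.4, 36.9 and 35.7 CPM in *Gli3*∆/∆ libraries. The groups overlapped, with the highest value of the 6 in *Gli3*∆/∆ library 1 and the lowest in library 3 of the same genotype. The ratio was 0.909-fold with an interval from 0.682 to 1.21 (adjusted p = 0.936, edgeR). Its relatives in the list of other G1 genes, the pocket proteins *Rbl1* (p107) and *Rbl2* (p130), had log2 fold changes of 0.24 and -0.07 (adjusted p = 0.919 and 0.977, edgeR).

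Ordered by mean level per kilobase over the 6 libraries, *Cdkn1a* (114 ± 53.8, SD, n = 6) and *Ccnd3* (105 ± 18.2) came first, followed by *Cdk4* (49.5 ± 7.13), *Cdkn1b* (35 ± 6.27) and *Ccnd1* (25.4 ± 13.1). Below these came *Cdkn1c* (12.9 ± 2.14), *Rb1* (9.32 ± 1.55), *Cdkn2c* (8.45 ± 2.19), *Cdk6* (0.932 ± 0.22) and *Ccnd2* (0.598 ± 0.262). The order of the first pair is not fixed, since *Cdkn1a* exceeded *Ccnd3* in only 2 of the 6 libraries. The ranges of neighbours did not overlap at 2 steps, from *Ccnd3* to *Cdk4* and from *Cdkn2c* to *Cdk6*, and overlapped at the other 7. Both the order and the first of these steps depend on the transcript length: with all annotated exons merged, the means were 66.6 for *Cdkn1a*, 35 for *Cdkn1b*, 31.3 for *Cdk4*, 25.2 for *Ccnd3* and 20.2 CPM per kilobase for *Ccnd1*, so that *Ccnd3* came below *Cdk4*. For *Cdk6* and *Ccnd2* the ranges overlapped although *Cdk6* was above *Ccnd2* in 6 of 6 libraries.

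The members differed widely in how far the libraries of a genotype lay apart. The standard deviation of log2(CPM + 1) within genotypes was 0.92 for *Ccnd1* (percentile 98.9 of genes at 1 CPM or more) and 0.68 for *Cdkn1a* (97.7). It was 0.48 for *Ccnd2* (93.5) and 0.42 for *Cdkn2c* (90.2), and it was above that of the median gene, 0.21, for 7 of the 10. The added 1 narrows this spread for scarce genes such as *Ccnd2*. The highest value of *Ccnd2* was 3.22 times its lowest, the same ratio as for *Cdkn1a*. *Cdkn1c*, *Cdk4* and *Ccnd3* were below the median gene. Each library pooled several mice, and the labels give no batch, so how much of this spread lies between animals was not tested.

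**Figure D4:**
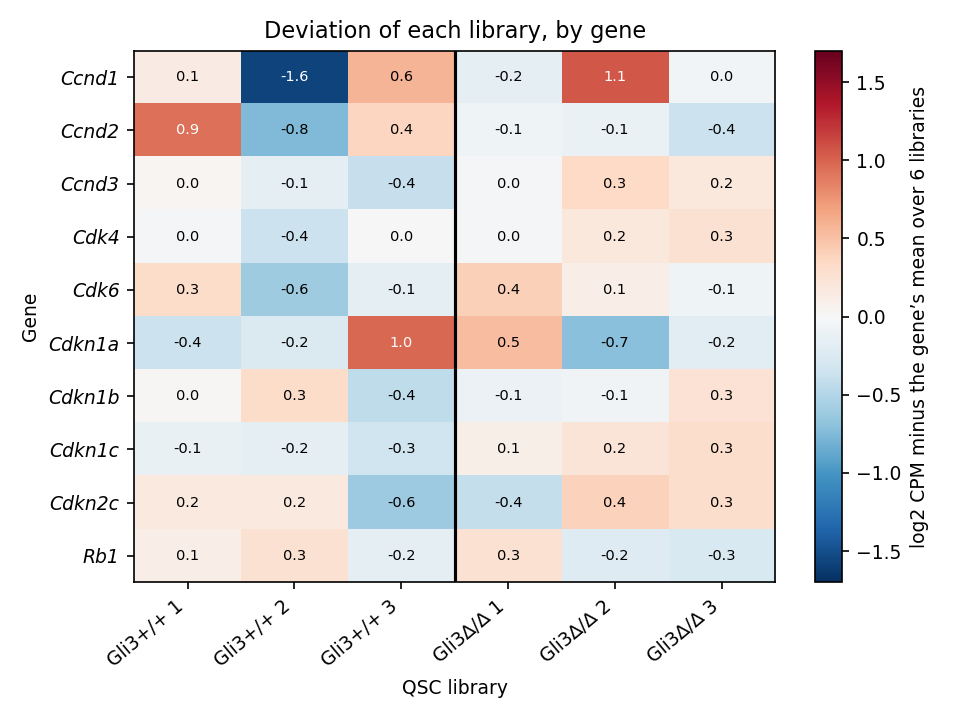
Deviation of log2 CPM in each QSC library (columns, *Gli3*+/+ left and *Gli3*∆/∆ right of the black line) from the mean over the 6 libraries, for each gene (rows). The strongest deviations, in *Ccnd1* and *Cdkn1a*, fall in libraries of both genotypes, whereas the row of *Cdkn1c* is negative in all *Gli3*+/+ and positive in all *Gli3*∆/∆ libraries.

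The genes whose log2(CPM + 1) most resembled the 3 most variable members over the 6 libraries, of 9117 genes at 10 CPM or more, were *Zfp267*, *Traf3* and *Eno1b* for *Ccnd1* (Pearson's r = 0.9890, 0.9863 and 0.9850), *Senp1*, *Zfp410* and *Usp37* for *Cdkn1a* (0.9962, 0.9908 and 0.9891), and *Ap4s1*, *Golga3* and *Ccrl2* for *Ccnd2* (0.9664, 0.9584 and 0.9577). Each is the highest of a large number of coefficients over only 6 libraries and serves as a description. The companions of *Cdkn1a* moved over a much narrower range than *Cdkn1a* did: *Senp1* was between 38.5 and 47.8 CPM.

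Of 33 other genes that act in G1 or at the G1/S transition, 0 were called by edgeR or by DESeq2, and 0 had an unadjusted p under 0.05 by edgeR. The log2 fold change was positive for 19 and negative for 14, with a median of 0.04, and 3 of the 33 did not overlap between genotypes: *Ccne2*, *Ccnh* and *Mnat1*, again against 13.0% of all genes. The largest differences among those at 1 CPM or more were 0.47 for *Ccng2*, a cyclin linked to cell cycle arrest (adjusted p = 0.823, edgeR), -0.45 for the INK4 inhibitor *Cdkn2d* (0.771), 0.30 for *Skp2*, which encodes the ubiquitin ligase subunit that directs p27 to degradation (0.875), 0.24 for *Rbl1* (0.919) and 0.24 for *Ccnh*, the cyclin of the CDK-activating kinase (0.833). *Cdkn2a* and *Cdkn2b*, the other INK4 genes, were below the level at which differences were ranked, with means of 1.12 and 0.931 CPM in *Gli3*+/+ and 0.585 and 0.587 CPM in *Gli3*∆/∆ libraries. Their log2 fold changes, -0.93 and -0.67, were larger than those just named (adjusted p = 0.778 and 0.861, edgeR).

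The authors' tables give for each gene a mean over all libraries of their fit, with no SD. It is the same in the tables for QSCs and for ASCs, and was set beside the mean of the 6 QSC libraries on the same CPM scale. The authors' mean was 14.7 times the QSC mean for *Ccnd2*, 13.6 times for *Cdk6*, 4.67 times for *Ccnd1*, 2.54 times for *Cdkn1c* and 2.03 times for *Cdk4*. A ratio of at least 2 was thus seen for 5 of the 10, where 10.2% of genes at 1 CPM or more reached it. The ratio was under 1 for *Ccnd3* (0.839) and *Cdkn1b* (0.719), and the median over all such genes was 0.977. So *Ccnd2* and *Cdk6*, the scarcest members in QSCs, were those with the highest ratio, and *Ccnd1* exceeded *Ccnd3* in the authors' mean, at 441 and 186 CPM. Whether the difference lies in one genotype of ASCs or in both cannot be read from a mean over all libraries, and the ratio has no replicate check. For *Gli3*+/+ cells, the paper reports increased *Cdk6*, *Ccnd2* and *Ccnd1* in ASCs relative to QSCs.

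**Figure D5:**
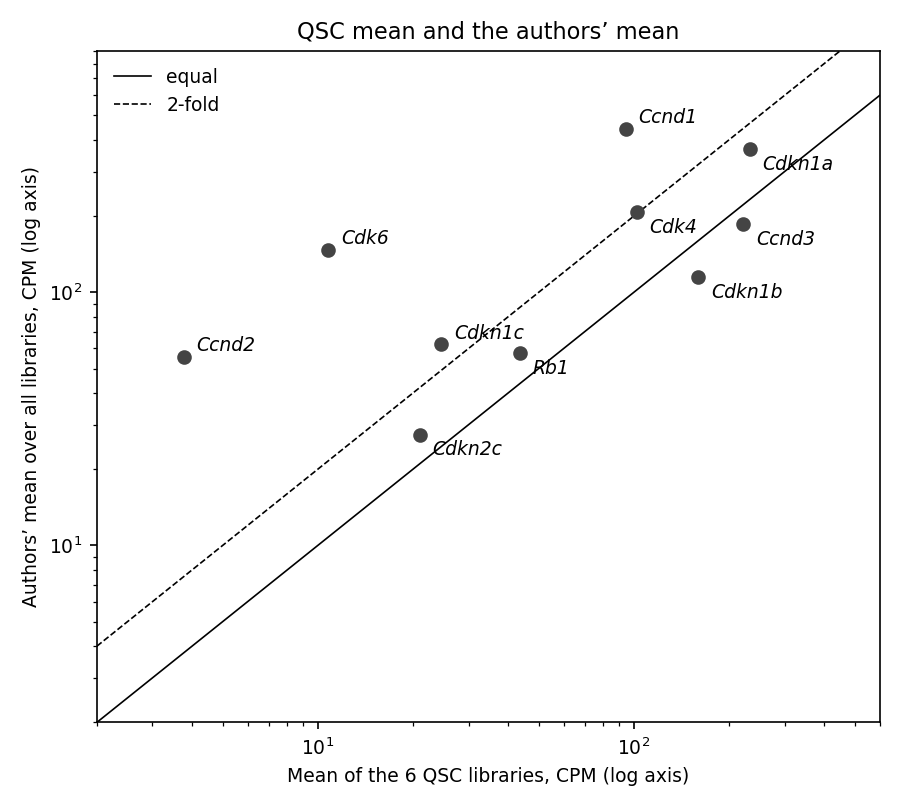
Mean of the 6 QSC libraries (horizontal axis, CPM, log axis) against the authors' mean over all libraries (vertical axis, CPM, log axis) for the 10 genes, with lines for equal values (solid) and for a 2-fold ratio (dashed). *Ccnd2*, *Cdk6* and *Ccnd1* lie far above the dashed line, and *Ccnd3* and *Cdkn1b* lie below the solid line.

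The make-up of the sorted cells was checked with marker genes of other cell types. Leukocyte markers summed to between 10 and 26.1 CPM, with the highest sum in *Gli3*+/+ library 1 and the other 5 at 16.5 CPM or less. Their most abundant gene by the mean, *Cd68*, was between 5.97 and 9.09 CPM, and *Lyz2* exceeded it in *Gli3*+/+ library 1, at 13 CPM, and in *Gli3*∆/∆ library 1, at 6.91 CPM. *Itgam* was at 0 in *Gli3*∆/∆ library 3, and no other marker of these lists was at 0 in any library. Endothelial markers summed to between 177 and 269 CPM and myofiber markers to between 36.4 and 61.8 CPM, with *Tek* and *Acta1* the most abundant. Fibro-adipogenic markers summed to between 2211 and 3073 CPM, mostly *Gsn*, and mural cell markers to between 1644 and 2628 CPM, mostly *Notch3*, which satellite cells also express. In none of these lists was a gene called by edgeR or DESeq2. Of the mural markers, 2 had an unadjusted p under 0.05 by edgeR, *Rgs5* and *Myh11*, against 7.11% of all genes. Their log2 fold changes were -0.92 and -1.50, and 2 other genes of that list had positive values. The 4 Schwann cell markers examined were all lower in every *Gli3*∆/∆ than in every *Gli3*+/+ library, where 13.0% of all genes did not overlap. They summed to 51.6, 44.8 and 60.7 CPM in *Gli3*+/+ and 26, 36.9 and 34.5 CPM in *Gli3*∆/∆, with *Mbp* the most abundant. By edgeR 0 of the 4 were called, against 0.351% of all genes, and 3 had an unadjusted p under 0.05, against 7.11%. By DESeq2 1 was called, *Sox10*, against 1.53% of all genes. A list of genes induced when muscle is dissociated held immediate early genes and the heat shock genes *Hspa1a* and *Hspa1b*. They were abundant in all libraries, with *Egr1* between 7416 and 10300 CPM. The log2 fold change was negative for 14 of 15, among them *Hspa1a* at -0.00, where 47.2% of genes at 1 CPM or more had a positive one. Their median was -0.14, and 0 were called by edgeR or DESeq2. Of the 8 satellite cell markers, 0 were called by edgeR or DESeq2, and the log2 fold change was positive for 3 and negative for 5. Only *Cdh15* did not overlap between genotypes (log2 fold change 0.46, adjusted p = 0.648, edgeR), against 13.0% of all genes. What part the transcripts of these lists had in the values of *Cdkn1c* was not tested.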

How the data were processed

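mRNA libraries of sorted satellite cells were sequenced by the authors, who estimated transcript abundances with salmon against GRCm38 (GENCODE vM19), loaded them with tximport, and kept genes with 5 or more reads in 2 or more samples. The deposited values are estimated counts per gene, and 38.8% of the QSC values lie more than 0.01 from a whole number. Among the members this was so in all 6 libraries for *Ccnd3*, *Cdk6* and *Cdkn1a*, in 5 for *Cdk4* and in 3 for *Ccnd1*. Estimated counts can be fractional where reads fit several transcripts, which was not tested here. Counts were rounded before testing. Another 6 columns of counts, from ASCs, match no label and were not used, so the planned ASC comparisons could not be run. Per the file headers, the 4 comparison tables hold the authors' mean signal over libraries (DESeq2 counts divided by size factors, the same in all 4), which was used, and their log2 fold changes, standard errors and p-values, which were not.

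The main test was edgeR 4.0.16 (TMM, quasi-likelihood, R 4.3.3) on all 25093 genes. DESeq2 1.42.0, limma 3.58.1 (voom with quality weights), other scalings and filters, a replicate block and leaving out each library were alternatives. The edgeR step was tested on simulated data: of 200 genes altered among 25093, it found 31% of those altered 2-fold and 84% of those altered 4-fold, and called 9 unaltered genes. DESeq2 found 58% and 95% and called 44 unaltered genes. Lengths and coordinates came from GENCODE vM21 (GRCm38), promoter windows from RefSeq. P-values measure the spread between pools of mice. The genes and lists were chosen with earlier results of these data known. Named were all 10 members, the 5 other G1 genes with the largest change at 1 CPM or more, and of each other list the most abundant and any called gene. Genes outside this rule (*Myc*, *Lyz2*, *Itgam*, *Rgs5*, *Myh11*, *Cdh15*, *Hspa1a*, *Hspa1b*, *Cdkn2a*, *Cdkn2b*, *Rbl2*, *Ccne2*, *Mnat1*, and the replication, mitotic and commitment genes of the closing section) were chosen after their values were seen. A marker gene of the planned lists is not reported here.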

Additional observations from a re-analysis of the deposited data

How the results depend on the processing

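The comparisons with ASCs and their alternatives were not run. None of the 10 genes was called under any of the 13 alternatives. The number of genes called over the whole table was 88, and it was 384 with DESeq2, 48 with at least 10 counts required in every library, 73 with limma-voom and 79 with the replicate block. Leaving out a library gave between 58 (without *Gli3*∆/∆ library 3) and 103. Same-numbered libraries did not deviate together (correlations of -0.236, -0.017 and -0.048 over 19500 genes). The replicate block thus pairs nothing known, and it changed no call among the members. Between differently numbered libraries the correlations ran from -0.22 to 0.287. The value was 0.242 for *Gli3*+/+ library 3 and *Gli3*∆/∆ library 1, the libraries in which *Cdkn1a* was highest. The direction of 4 members turned under some settings. The log2 fold change of *Ccnd1* was -0.07 without *Gli3*∆/∆ library 2, and leaving out a library gave between -0.07 and 0.87. Over all alternatives the range for *Cdkn1a* was from -0.68 to 0.27, for *Cdkn1b* from -0.14 to 0.22, and for *Cdkn2c* from -0.03 to 0.39, each turning without *Gli3*+/+ library 3, and *Cdkn1b* also without *Gli3*∆/∆ library 3 (-0.08) and with limma-voom (-0.04). The causes were not tested.

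Differences in shares (*Gli3*∆/∆ minus *Gli3*+/+, percentage points) turned sign when a library was left out, except for *Ccnd2* and *Cdkn1c*. They ran from -4.75 to 6.29 for *Ccnd1*, from -6.07 to 5.13 for *Ccnd3* and from -11.8 to 2.86 for *Cdkn1a*. For *Cdkn1b* they ran from -4.03 to 5.01 and for *Cdkn2c* from -0.332 to 2.57. The differences of *Ccnd2* ran from -0.376 to -0.137 and those of *Cdkn1c* from 1.5 to 4.23. Merged exon lengths, an alternative added after seeing the data, turned none of the differences. They moved the difference from 0.795 to 3.07 for *Ccnd1* and from -0.55 to -2.61 for *Ccnd3*. The 95% intervals still hold folds of 2.95 for *Ccnd1*, 0.384 for *Ccnd2* and 0.436 for *Cdkn1a*. Depth and the spread between pools were not separated as limits.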

Other observations

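Genes that act after G1 were examined as a separate list of 20 genes of S, G2 and M phase. Of these, 0 were called by edgeR and 1, *Mcm6*, by DESeq2, which called 1.53% of all genes. Only 2 of the 20, *Mcm6* and *Pcna*, did not overlap between genotypes, against 13.0% of all genes. Of the 20 log2 fold changes, 6 were positive and 14 negative, with a median of -0.31, where the median of all genes was -0.03. A mean under 1 CPM was seen for 4 of the 20. *Mcm6*, a subunit of the replicative helicase, was at 19.9, 22.5 and 21.5 CPM in *Gli3*+/+ and at 8.45, 14.3 and 9.03 CPM in *Gli3*∆/∆ libraries, and the groups did not overlap (log2 fold change -1.01, adjusted p = 0.153 by edgeR and 0.00315 by DESeq2). The other helicase subunits in the list, *Mcm2*, *Mcm3*, *Mcm4*, *Mcm5* and *Mcm7*, overlapped between genotypes, with log2 fold changes between -0.14 and 0.13. *Pcna*, the sliding clamp of DNA polymerase, was at 64.3, 52.3 and 91.6 CPM in *Gli3*+/+ and at 47.9, 39 and 40.5 CPM in *Gli3*∆/∆ libraries (log2 fold change -0.71, adjusted p = 0.4 by edgeR and 0.12 by DESeq2).

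Several transcripts of dividing cells were scarce and highest in *Gli3*+/+ library 1. That library also had the highest sum of leukocyte markers, 26.1 CPM against 10 to 16.5 CPM in the others. Its sum of endothelial markers was the highest as well, 269 CPM against 177 to 199 CPM. The part of other cells in the transcripts of dividing cells was not tested. *Mki67* was at 8.84, 0.993 and 2.76 CPM in *Gli3*+/+ and at 6.51, 4.46 and 3.42 CPM in *Gli3*∆/∆ libraries, *Top2a* was at 8.64 CPM and *Ccnb1* at 3.33 CPM in that library, and *Ccnd2* too had its highest value there, at 6.73 CPM. *Cdk1*, in contrast, was at 2.31 CPM there and at 2.34 CPM in *Gli3*∆/∆ library 3. Of the 3 myogenic commitment genes, *Myog*, which marks differentiating cells, was at 4.94, 2.61 and 6.31 CPM in *Gli3*+/+ and at 14.2, 9.67 and 9.05 CPM in *Gli3*∆/∆ libraries. Its groups did not overlap, against 13.0% of all genes. The log2 fold change was 1.25 (adjusted p = 0.297 by edgeR and 0.0171 by DESeq2, which called 1.53% of all genes). *Myod1* and *Mymk* overlapped between genotypes. *Mymk* was at 0.72, 0.104 and 0.603 CPM in *Gli3*+/+ and at 1.14, 0.492 and 1.42 CPM in *Gli3*∆/∆ libraries (adjusted p = 0.843, edgeR).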
